A study of Mus musculus with 8 samples.

Results

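The enzymes that add acetyl groups to histones or remove them, and a pair of proteins that read them, were followed at 2 oxygen levels. The cells were mouse bone-derived mesenchymal stem cells (MSCs), the stromal cells that can form bone, fat and cartilage. The set held 33 genes chosen by name and role, with no measured value in the rule: 13 acetyltransferases, 11 zinc-dependent histone deacetylases (HDACs), 7 sirtuins and the BET readers Brd2 and Brd3. All 33 were found among the 53465 gene identifiers of the count table, and all 33 were among the 14369 genes that passed a filter on low counts. RNA-seq counts from 4 samples kept in hypoxia, at 2% oxygen with 5% carbon dioxide and 37 °C, were compared with those from 4 samples cultured in normoxia, at 21% oxygen with the same carbon dioxide and temperature, from C57BL6/N mice aged 3 to 5 months. Per the labels, both groups had a change of medium on day 3 and a passage on day 5, and MSCs were purified by FACS on day 12. The methods of the study give the same days, although a figure legend of the study puts the sort earlier. The methods place this culture at 2% oxygen for all cells. They then describe cells sorted as negative for CD45 and TER-119 and positive for Sca-1 and CD140a. The sorted cells were divided between the oxygen levels for a week. No genotype or agent set the groups apart. The comparison asks how a long stay at high oxygen bears on the link between metabolism, chromatin and cell fate.

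Histone acetyltransferases move the acetyl group of acetyl-CoA to lysines of histone tails, which loosens the hold of the histones on DNA and makes docking sites for bromodomain proteins. Zinc-dependent deacetylases remove it by hydrolysis inside large corepressor complexes, and sirtuins remove it at the cost of NAD, so that both steps draw on metabolites that depend on the state of the cell. In MSCs the balance between these enzymes is known for its part in the choice between the bone and fat lineages, and several class II deacetylases are known as partners of the transcription factors of bone and muscle.

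Total counts per sample ranged from 12898291 to 25132141, and hypoxia replicate 1 was the deepest sample and also lay nearest to the normoxia samples on the first principal component, at -6.77 against -23.9 to -31.7 for the other hypoxia samples. Members had between 33 and 3481 counts in a sample, so the weakest of them carry more counting error. All 12 markers of MSC identity were above the filter, with 1928 to 4011 counts for Pdgfra and 4636 to 11995 for Ly6a, the genes of the sorted antigens CD140a and Sca-1. Ptprc, which encodes the CD45 antigen, had 140 to 263 counts, and the 12 macrophage markers summed to between 654 and 1422 CPM (counts scaled to a common library size) in hypoxia and between 705 and 1370 in normoxia, with 1 of 12 higher and 2 of 12 lower in normoxia (1 and 8 with same-numbered samples treated as pairs). None of the 7 lymphocyte and none of the 7 erythroid markers passed the filter, and Hba-a1, Slc4a1, Cd3e and Ms4a1 had 0 counts in every sample. The summed level of the MSC markers was 86674 to 95388 CPM in hypoxia and 59140 to 64223 CPM in normoxia, with 2 of 12 higher and 3 of 12 lower (4 and 7 with the pairs). This sum is mostly collagen, Col1a1 foremost (-0.74), while Cd44 (0.72) and Nt5e (0.59) rose and Pdgfra had a change of 0.24 that missed the threshold. Of 4 tested osteoblast markers 2 fell (3 with the pairs), among them Sp7 (-0.80) and Alpl (-0.48). Their list summed to between 185 and 234 CPM in hypoxia and between 111 and 168 in normoxia. Of 5 tested chondrocyte markers 1 rose and 2 fell (1 and 3 with the pairs), Sox9 (-0.58) among them, with sums of 4918 to 6659 and 4010 to 4787 CPM. None of 3 tested endothelial and 3 tested adipocyte markers passed the threshold, while with the pairs 1 adipocyte marker was higher, Lpl (0.70). The adipocyte list summed to between 29.6 and 58.9 CPM in hypoxia and between 45.4 and 103 in normoxia. The 10 proliferation markers summed to between 340 and 623 CPM in hypoxia and between 422 and 669 in normoxia, with 1 of 10 higher (2 with the pairs). The part of these differences in the results was not tested. In bulk samples such as these, fewer cells of a type and less RNA per cell cannot be told apart.

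The acetylation enzymes changed in both directions between hypoxia and normoxia, and by modest amounts. Of the 33 genes, 15 (45.5%) had an adjusted p-value under 0.05 in limma-trend, with Benjamini-Hochberg adjustment over all tested genes, against 34.6% of all tested genes. Of these, 7 rose in normoxia (Kat2b, Kat6b, Hdac1, Hdac2, Hdac4, Brd2 and Brd3), against 18% of all tested genes, and 8 fell (Kat7, Crebbp, Hdac3, Hdac5, Hdac9, Sirt2, Sirt3 and Sirt6), against 16.5%. By role, 2 of 13 acetyltransferases rose and 2 fell, 3 of 11 zinc-dependent deacetylases rose and 3 fell, 3 of 7 sirtuins fell and none rose, and both BET readers of the set rose. The median log2 change, normoxia minus hypoxia, was -0.06 over the members and 0.0049 over all tested genes, and the median size of the change was 0.20 against 0.24. The largest change of a member was 0.60 on the log2 scale, whereas 309 tested genes past the threshold changed by at least 1.

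The split between rises and falls moved with the scaling of the libraries. With total counts as the only scaling, 8 members were higher and 3 lower, beside 25.1% and 11% of all tested genes, and with the size factors of DESeq2 in the same model 5 were higher and 10 lower, beside 17.2% in each direction. No member past the threshold changed its direction under any of 22 alternative scalings, filters, tests, corrections and samples left out. The values of the 4 hypoxia and 4 normoxia samples did not overlap for 14 members (42.4%, against 32.6% of all tested genes), which were the 15 named above without Brd3. All 15 moved the same way in 4 of 4 pairs of same-numbered samples, which groups without overlap must do. Over all 33 members this held for 24, a count for which the share over all tested genes was not computed, so it is not read as a trait of the set.

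Samples with the same number deviated together, and blocking the fit by replicate number called 19 members (57.6%), against 46% of all tested genes. These were the same 15 with Hat1 higher and Kat2a, Ep300 and Hdac7 lower, which gives 8 higher, against 23.3% of all tested genes, and 11 lower, against 22.7%.

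**Figure D1:**
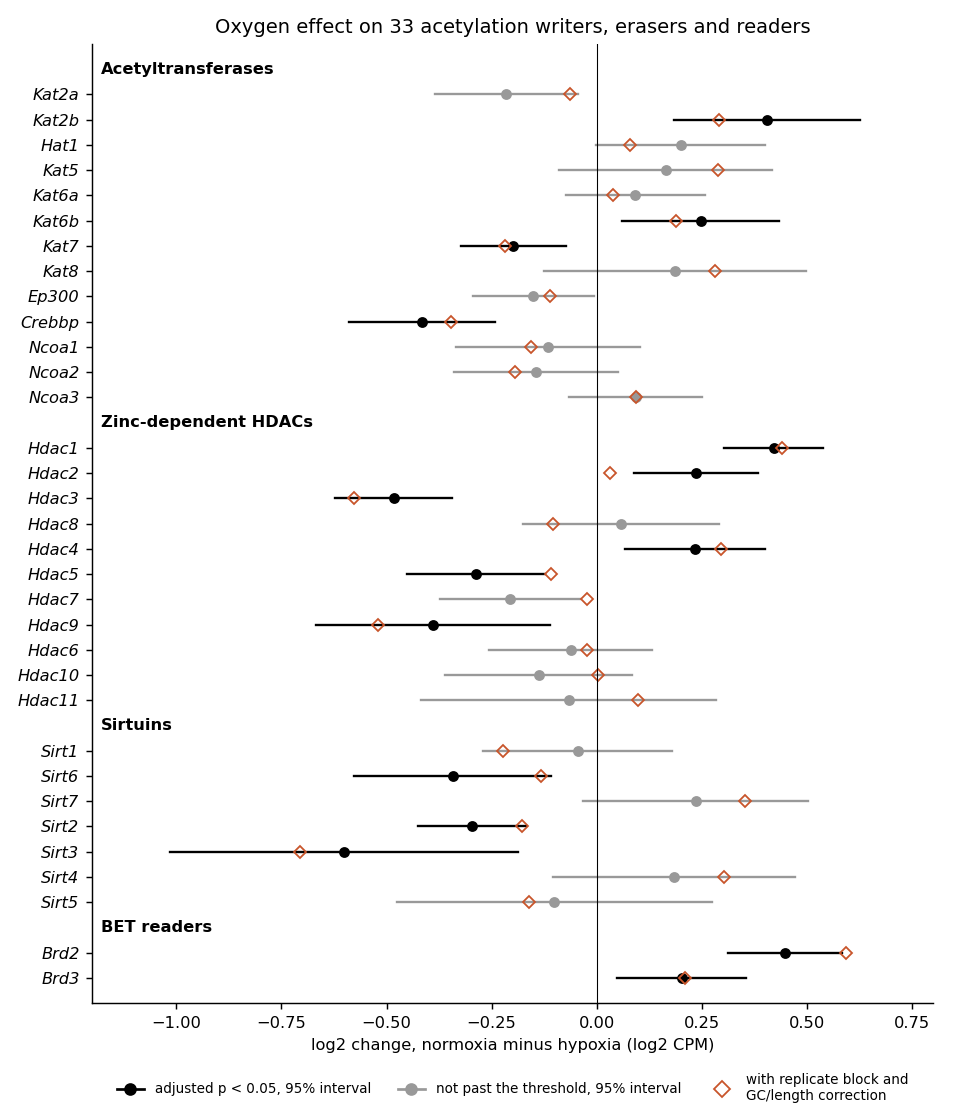
Log2 change, normoxia minus hypoxia, of each of the 33 genes (points) with its 95% confidence interval (lines) from limma-trend over 4 samples per group, in black for an adjusted p-value under 0.05 and in grey otherwise. Open diamonds give the change with the replicate block after removal of trends with GC content and transcript length, which brought Hdac2 from 0.24 to 0.03 and left Hdac3 at -0.58.

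Among the GNAT-type acetyltransferases, the paralogs Kat2a (GCN5) and Kat2b (PCAF), which serve as alternative catalytic subunits of the SAGA and ATAC coactivator complexes, had opposite differences. Kat2b (ENSMUSG00000000708, chr17:53566861-53672720, plus strand, GRCm38) had log2 CPM values of 4.80, 4.93, 4.44 and 4.55 in hypoxia replicates 1 to 4 and of 5.08, 5.16, 5.02 and 5.07 in normoxia. Every normoxia sample lay above every hypoxia sample, and Kat2b rose by 0.41 ± 0.10 (SE, n = 4 per group, adjusted p = 0.0089), or 32.5%. Kat2a had 5.51, 5.24, 5.44 and 5.38 log2 CPM in hypoxia and 5.20, 5.03, 5.25 and 5.24 in normoxia. Its groups overlapped, and its change of -0.22 ± 0.08 missed the threshold without the block (adjusted p = 0.051) and passed it with the block (adjusted p = 0.0096), without hypoxia replicate 2 (adjusted p = 0.020), and in the edgeR and DESeq2 tests (adjusted p = 0.045 and 0.043).

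Read against each other within a library, the ratio of Kat2a to Kat2b counts does not depend on how libraries are scaled. Its log2 value was 0.72 ± 0.29 (SD, n = 4) in hypoxia and 0.10 ± 0.16 in normoxia, a difference of -0.62, and the groups did not overlap. The two-sided exact permutation test gave p = 0.0286, the smallest value that the 70 assignments of 8 samples allow, and 0.0629 after adjustment over the 11 paralog ratios computed. Per kilobase of exon sequence, Kat2b made up 30.4% ± 4.4 (SD, n = 4) of the counts of the pair in hypoxia and 40.1% ± 2.6 in normoxia. Exon length, here and for all levels per kilobase, merges the annotated isoforms of a gene. The transcripts of the pair differ in GC content (57.4% for Kat2a and 46.6% for Kat2b), and after correction for GC content and length the difference in the ratio was -0.35 (exact permutation p = 0.114). Hat1, the acetyltransferase of newly made histone H4 in the cytoplasm, had 4.44, 4.25, 4.33 and 4.38 log2 CPM in hypoxia and 4.78, 4.43, 4.55 and 4.45 in normoxia. The groups of Hat1 overlapped narrowly, and its change of 0.20 ± 0.09 passed the threshold with the block (adjusted p = 0.046) and not without it (adjusted p = 0.115), except with total counts as the only scaling (0.29, adjusted p = 0.028).

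The 250 bases before a transcription start are printed for Kat2b and Hdac9, which had the largest rise and fall among members whose stretch holds no annotated exon, and for Hdac4 and Hdac5, relatives that changed in opposite directions. They come from RefSeq on GRCm38.p6, are written 5′ to 3′ on the strand of the gene, and carry in capitals each copy, on either strand, of ACGTG or GCGTG, the core letters of the hypoxia response element bound by the HIF transcription factors. The Kat2b window (chr17:53583876-53584125, plus strand) precedes the inner of its 2 annotated starts and is intronic. The Hdac4 window (chr1:92180342-92180591, minus strand) is also intronic, whereas those of Hdac5 (chr11:102230173-102230422, minus strand) and Hdac9 (chr12:34917096-34917345, minus strand) lie just outside the gene.
Kat2b: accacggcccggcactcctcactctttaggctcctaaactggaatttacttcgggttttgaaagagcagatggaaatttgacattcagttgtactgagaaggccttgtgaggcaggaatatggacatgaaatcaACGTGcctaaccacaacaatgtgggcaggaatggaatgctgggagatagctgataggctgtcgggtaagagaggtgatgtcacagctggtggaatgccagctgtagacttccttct
Hdac4: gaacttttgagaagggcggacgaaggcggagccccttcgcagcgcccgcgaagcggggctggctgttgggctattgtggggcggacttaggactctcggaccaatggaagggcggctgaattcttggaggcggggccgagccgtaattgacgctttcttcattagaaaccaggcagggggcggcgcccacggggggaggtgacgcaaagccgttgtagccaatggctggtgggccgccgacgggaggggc
Hdac5: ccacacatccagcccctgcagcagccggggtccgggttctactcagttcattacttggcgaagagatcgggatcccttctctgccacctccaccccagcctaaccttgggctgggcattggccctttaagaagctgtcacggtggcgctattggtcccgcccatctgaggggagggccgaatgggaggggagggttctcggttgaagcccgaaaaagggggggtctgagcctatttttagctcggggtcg
Hdac9: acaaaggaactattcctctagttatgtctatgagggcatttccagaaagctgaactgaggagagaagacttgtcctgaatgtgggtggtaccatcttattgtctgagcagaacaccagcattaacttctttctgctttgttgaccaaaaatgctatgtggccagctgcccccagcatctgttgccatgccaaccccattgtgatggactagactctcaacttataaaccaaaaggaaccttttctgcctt
The Kat2b stretch holds 1 copy and the other 3 hold none. Over whole windows of 300 bases, which add the first 50 bases after the start, 27 of the 33 members had an entry with 39 windows in all, and 17 of these (43.6%) held at least 1 copy, against 43.8% of 32851 windows of all genes. By gene, a copy was found for 2 of 6 members that rose, for 3 of 7 that fell and for 10 of 14 that were not past the threshold in the fit without the block. Hdac5 is among those that fell with a copy, since its whole window held 2 copies of ACGTG that the printed stretch does not hold. A match is a string of letters and says nothing of binding.

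The MYST acetyltransferases, named for their shared catalytic domain, split as well. Kat6b (MORF), which acetylates histone H3 within BRPF complexes and is needed for skeletal development, had 4.86, 5.11, 4.94 and 4.70 log2 CPM in hypoxia and 5.13, 5.20, 5.11 and 5.15 in normoxia. The groups met within a narrow margin and did not overlap, and Kat6b rose by 0.25 ± 0.09 (adjusted p = 0.043). This call ended without any 1 of 7 samples (all but hypoxia replicate 2), with adjusted p-values of 0.068 to 0.12, and held with the block (adjusted p = 0.0080). It also ended with the GC and length correction alone (0.19, adjusted p = 0.065) and held with the correction and the block together (adjusted p = 0.021). Kat7 (HBO1), the main acetyltransferase of lysine 14 on histone H3 and a helper of replication licensing, had 6.03, 5.90, 5.89 and 5.95 log2 CPM in hypoxia and 5.79, 5.75, 5.72 and 5.72 in normoxia. Kat7 was lower in every normoxia sample and fell by 0.20 on the log2 scale (SE 0.06, adjusted p = 0.018), a small change with little spread, of which total-count scaling left -0.11 (adjusted p = 0.149). Kat5 (TIP60), Kat6a (MOZ) and Kat8 (MOF) did not pass the threshold, with changes of 0.16 ± 0.12, 0.09 ± 0.08 and 0.19 ± 0.14.

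The general coactivator acetyltransferases Ep300 (p300) and Crebbp (CBP), which acetylate lysine 27 of histone H3 at enhancers, both had lower values in normoxia. Crebbp (ENSMUSG00000022521, chr16:4081328-4213997, minus strand, GRCm38) had 5.81, 5.80, 5.91 and 5.72 log2 CPM in hypoxia and 5.27, 5.36, 5.34 and 5.61 in normoxia. Normoxia replicate 4 came closest to the hypoxia samples, the groups did not overlap, and Crebbp fell by 0.41 on the log2 scale (SE 0.08, adjusted p = 0.0020), a change of -25.0%. Ep300 had 6.26, 6.41, 6.30 and 6.14 log2 CPM in hypoxia and 6.09, 6.18, 6.17 and 6.07 in normoxia. Its smaller change of -0.15 ± 0.07 passed the threshold with the block (adjusted p = 0.032) or without hypoxia replicate 4 (adjusted p = 0.042), and not in the fit of all samples without the block (adjusted p = 0.098). The log2 ratio of Ep300 to Crebbp counts was 0.47 ± 0.10 (SD, n = 4) in hypoxia and 0.74 ± 0.18 in normoxia, which overlapped through normoxia replicate 4 (exact permutation p = 0.0571). The steroid receptor coactivators Ncoa1, Ncoa2 and Ncoa3, which bring p300 and CBP to nuclear receptors, were not past the threshold, with changes of -0.12 ± 0.10, -0.14 ± 0.09 and 0.09 ± 0.07.

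The class I deacetylases, the nuclear enzymes that do most of the deacetylation of histones, had changes in opposite directions. Hdac1 (ENSMUSG00000028800, chr4:129516104-129542713, minus strand, GRCm38) had 6.53, 6.46, 6.43 and 6.44 log2 CPM in hypoxia and 6.86, 6.93, 6.94 and 6.82 in normoxia. The groups were far apart compared with the spread within them, and Hdac1 rose by 0.42 ± 0.05 (adjusted p = 0.00021), or 33.8%. Hdac2, its partner in the SIN3, NuRD and CoREST complexes, had 6.34, 6.14, 6.10 and 6.35 log2 CPM in hypoxia and 6.48, 6.49, 6.44 and 6.45 in normoxia. The normoxia values of Hdac2 lay within 0.05 of each other and all above hypoxia, a rise of 0.24 ± 0.07 (adjusted p = 0.018). With correction for GC content and length the change of Hdac2, whose transcript has the lowest GC content of the members at 41.9%, was 0.03 (adjusted p = 0.739, or 0.667 with the block), and the call also ended without hypoxia replicate 3, normoxia replicate 1 or normoxia replicate 2 (adjusted p of 0.0602, 0.0533 and 0.0642).

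Hdac3 (ENSMUSG00000024454), the catalytic subunit of nuclear receptor corepressor complexes, moved the other way. It had 6.35, 6.38, 6.52 and 6.44 log2 CPM in hypoxia and 5.93, 5.86, 5.92 and 6.06 in normoxia. All 4 normoxia samples lay below all 4 hypoxia samples, and Hdac3 fell by 0.48 on the log2 scale (SE 0.06, adjusted p = 0.00025), a change of -28.4%. The change of Hdac3 was -0.58 after the GC and length correction with the block (adjusted p = 6.06e-10), so it was larger there and not smaller. Hdac8, the cohesin deacetylase, had 3.28 to 3.52 log2 CPM in hypoxia and 3.36 to 3.62 in normoxia and did not pass the threshold (0.06 ± 0.11).

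On the scale of counts per kilobase, these changes altered the make-up of class I. Hdac1 had the highest level of all 33 members in both groups, at 25.6 ± 0.81 CPM per kilobase (SD, n = 4) in hypoxia and 34.3 ± 1.3 in normoxia. Hdac3 ranked second in hypoxia at 21.2 ± 1.1 CPM per kilobase and fell to 15.1 ± 0.89 in normoxia, below Brd2 (24.2 ± 0.90) and Hdac2 (19.7 ± 0.34). Of all class I counts per kilobase, Hdac1 thus made up 39.0% ± 1.1 in hypoxia and 48.0% ± 1.6 in normoxia, and Hdac3 made up 32.2% ± 2.1 and 21.2% ± 1.3, both without overlap of the groups. The share of Hdac2 was 25.5% ± 1.8 and 27.6% ± 0.51, which overlapped. The log2 ratio of Hdac1 to Hdac2 was 0.24 ± 0.11 in hypoxia and 0.42 ± 0.06 in normoxia. It was higher by 0.19 on average, without overlap of the groups (exact permutation p = 0.0286, adjusted 0.0629). The difference was 0.41 after the GC and length correction (exact permutation p = 0.0286, again the smallest possible).

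**Figure D2:**
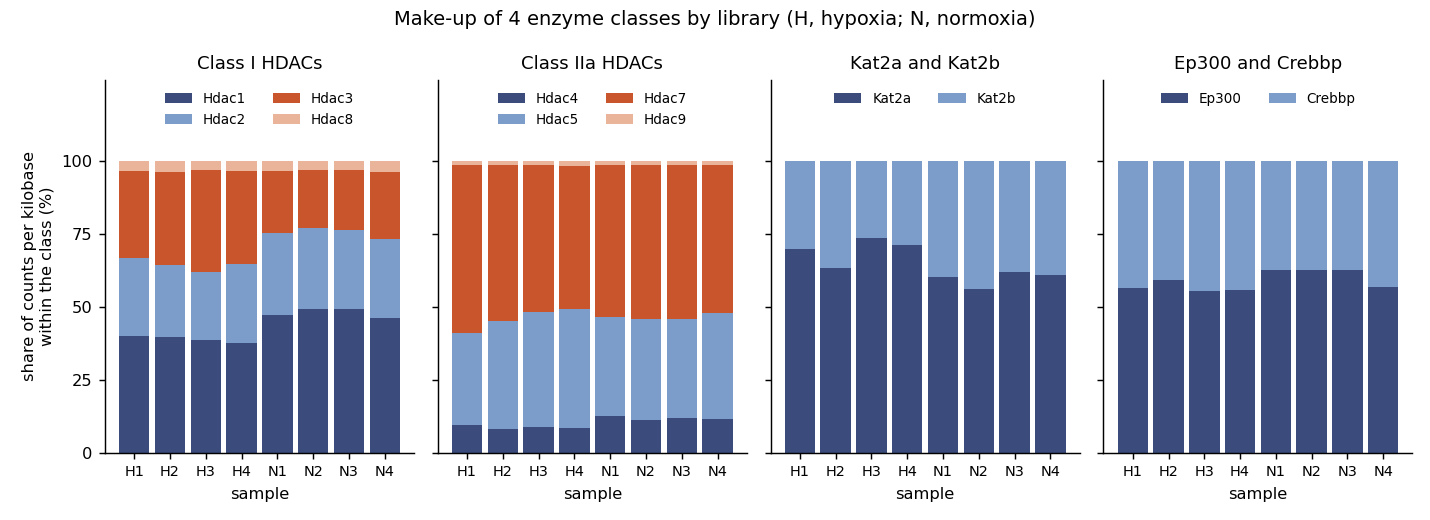
Share of the counts per kilobase of exon sequence taken by each member of a class (%, stacked to 100) in each sample. Samples are hypoxia (H1 to H4) and normoxia (N1 to N4), and classes are class I HDACs, class IIa HDACs, Kat2a with Kat2b, and Ep300 with Crebbp. Hdac1 takes 37.6 to 39.9% of class I in the hypoxia samples and 46.1 to 49.4% in the normoxia samples, while the share of Hdac3 is lower in every normoxia sample.

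Class IIa deacetylases have little catalytic activity of their own, shuttle between nucleus and cytoplasm and repress the MEF2 and RUNX2 transcription factors. Hdac4, a known brake on cartilage hypertrophy, had 5.26, 5.03, 5.10 and 4.96 log2 CPM in hypoxia and 5.36, 5.27, 5.38 and 5.28 in normoxia. Hypoxia replicate 1 sat just under the lowest normoxia sample, and Hdac4 rose by 0.23 ± 0.08 (adjusted p = 0.032), a call that ended without any 1 of 7 samples (all but hypoxia replicate 1, adjusted p of 0.058 to 0.097) and held with the block (adjusted p = 0.0066). Hdac5, a closely related enzyme known from heart muscle and bone, had 6.11, 6.39, 6.43 and 6.35 log2 CPM in hypoxia and 5.95, 6.06, 6.02 and 6.11 in normoxia. Hypoxia replicate 1 was again the hypoxia sample nearest to normoxia, level with normoxia replicate 4 at this precision, and Hdac5 fell by 0.29 on the log2 scale (SE 0.08, adjusted p = 0.011). The Hdac5 change was -0.11 after the GC and length correction (adjusted p = 0.224, or 0.104 with the block) and -0.20 with total-count scaling (adjusted p = 0.067).

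The remaining class IIa enzymes also had lower values in normoxia. Hdac9, which is known from muscle and fat cells, was the least abundant member per kilobase (0.346 ± 0.018 CPM per kilobase in hypoxia and 0.261 ± 0.012 in normoxia), and had 2.44, 2.42, 2.29 and 2.44 log2 CPM in hypoxia and 2.08, 1.93, 1.98 and 2.04 in normoxia. The groups were apart in spite of 50 to 125 counts per sample, and Hdac9 fell by 0.39 on the log2 scale (SE 0.13, adjusted p = 0.033). This call ended without hypoxia replicate 1, 2 or 4 or normoxia replicate 2, 3 or 4 (adjusted p of 0.055 to 0.076) and held with the block (adjusted p = 0.031). Hdac7, known for its role in blood vessels and thymocytes, had 6.61, 6.54, 6.39 and 6.25 log2 CPM in hypoxia and 6.19, 6.29, 6.29 and 6.20 in normoxia. The groups of Hdac7 overlapped, and its change of -0.21 ± 0.08 missed the threshold (adjusted p = 0.054). It passed the threshold with the block (adjusted p = 0.0083), in the unblocked fit without hypoxia replicate 4 (adjusted p = 0.014), and in the edgeR and DESeq2 tests (adjusted p = 0.049 and 0.039). After the GC and length correction with the block, the change of Hdac7 was -0.02 (adjusted p = 0.755).

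Within a library, Hdac4 was compared with both relatives that fell. The log2 ratio of Hdac4 to Hdac5 was -1.24 ± 0.26 (SD, n = 4) in hypoxia and -0.71 ± 0.11 in normoxia, a difference of 0.52, and that of Hdac9 to Hdac4 was -2.73 ± 0.15 and -3.37 ± 0.07, a difference of -0.64. Neither pair of groups overlapped, and both exact permutation tests gave the smallest possible p = 0.0286, with an adjusted value of 0.0629. After the GC and length correction these differences were 0.40 (exact permutation p = 0.0857) and -0.82 (exact permutation p = 0.0286). None of the 11 ratios passed 0.05 after adjustment, although 5 of them reached the smallest p-value that 4 samples per group allow. Hdac4 went from 8.73% ± 0.69 of class IIa counts per kilobase in hypoxia to 11.8% ± 0.60 in normoxia. The class IIb enzymes Hdac6, the tubulin deacetylase, and Hdac10, a polyamine deacetylase, and the class IV enzyme Hdac11 were not past the threshold, with changes of -0.06 ± 0.09, -0.14 ± 0.10 and -0.07 ± 0.16.

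Sirtuins are NAD-dependent and differ in where they work. Sirt2, the cytoplasmic tubulin and histone H4 deacetylase, was the most abundant sirtuin per kilobase, at 51.1% ± 1.9 of sirtuin counts per kilobase in hypoxia and 47.9% ± 0.49 in normoxia. It had 6.03, 6.14, 5.99 and 6.14 log2 CPM in hypoxia and 5.75, 5.79, 5.81 and 5.77 in normoxia. The normoxia samples were tightly grouped below the hypoxia samples, and Sirt2 fell by 0.30 on the log2 scale (SE 0.06, adjusted p = 0.0025). In the mitochondrion, Sirt3 is the main deacetylase of metabolic enzymes. Sirt3 (ENSMUSG00000025486, chr7:140863666-140882309, minus strand, GRCm38) had 2.16, 2.16, 2.62 and 2.60 log2 CPM in hypoxia and 1.73, 1.93, 1.37 and 2.10 in normoxia.

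The samples of Sirt3 were widely spread in both groups, normoxia replicate 4 lay just under the lowest hypoxia samples, and Sirt3 fell by 0.60 on the log2 scale (SE 0.19, adjusted p = 0.028), the largest change of the set. It rested on 33 to 102 counts per sample, and the call ended without hypoxia replicate 3 or 4 or normoxia replicate 1 or 3 (adjusted p of 0.0871, 0.0844, 0.0554 and 0.0813), while the block gave an adjusted p of 0.0054. Exons of Ric8a and Psmd13 on the opposite strand cover 7.0% and 5.73% of the exon bases of Sirt3. Both neighbours have more counts than Sirt3, from 715 to 1548 and from 891 to 2223, and changes of -0.04 and 0.07 (adjusted p = 0.619 and 0.566). Whether the counting used strand is not stated, so reads of the neighbours cannot be told from those of Sirt3 there, and their part in the result was not tested.

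In the nucleus, Sirt6, which deacetylates lysine 9 of histone H3 at promoters of glycolytic genes, had 3.83, 3.60, 3.90 and 3.77 log2 CPM in hypoxia and 3.48, 3.58, 3.44 and 3.23 in normoxia. Hypoxia replicate 2 and normoxia replicate 2 all but met, and Sirt6 fell by 0.34 on the log2 scale (SE 0.11, adjusted p = 0.028). The call ended without hypoxia replicate 1, 3 or 4 or normoxia replicate 3 or 4 (adjusted p of 0.051 to 0.081), and the GC and length correction left a change of -0.13 (adjusted p = 0.356, or 0.296 with the block). Sirt7, a nucleolar sirtuin, had a higher mean in normoxia that missed the threshold (0.24 ± 0.12, adjusted p = 0.162), and passed it after the GC and length correction with the block (0.35, adjusted p = 0.0078). Sirt1, the best-studied sirtuin and a deacetylase of transcription factors, had 3.57 to 3.81 log2 CPM in hypoxia and 3.47 to 3.77 in normoxia, with a 95% interval of its change from -0.27 to 0.18. The mitochondrial sirtuins Sirt4 and Sirt5, the latter a desuccinylase, were not past the threshold either, with changes of 0.18 ± 0.13 and -0.10 ± 0.17.

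BET proteins bind acetylated histone H4 through paired bromodomains and carry the transcription machinery to active genes. Brd2 (ENSMUSG00000024335, chr17:34112023-34122634, minus strand, GRCm38) had 7.19, 7.22, 7.07 and 6.99 log2 CPM in hypoxia and 7.54, 7.53, 7.64 and 7.54 in normoxia. No sample of either group came near the other group, and Brd2 rose by 0.45 ± 0.06 (adjusted p = 0.00032), or 36.4%, the largest rise of the set. The rise of Brd2 was 0.59 after the GC and length correction with the block (adjusted p = 1.89e-11). Brd3 had 5.79, 5.65, 5.53 and 5.53 log2 CPM in hypoxia and 5.82, 5.87, 5.78 and 5.84 in normoxia. Hypoxia replicate 1 overlapped with the normoxia samples, and Brd3 rose by 0.20 ± 0.07 (adjusted p = 0.043), a call that ended without any 1 of 7 samples (all but hypoxia replicate 1, adjusted p of 0.055 to 0.125) and held with the block (adjusted p = 0.011). The log2 ratio of Brd3 to Brd2 was -1.50 ± 0.08 (SD, n = 4) in hypoxia and -1.74 ± 0.09 in normoxia. The groups did not overlap (exact permutation p = 0.0286, adjusted 0.0629), so the ratio was lower in 4 of 4 pairs.

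**Figure D3:**
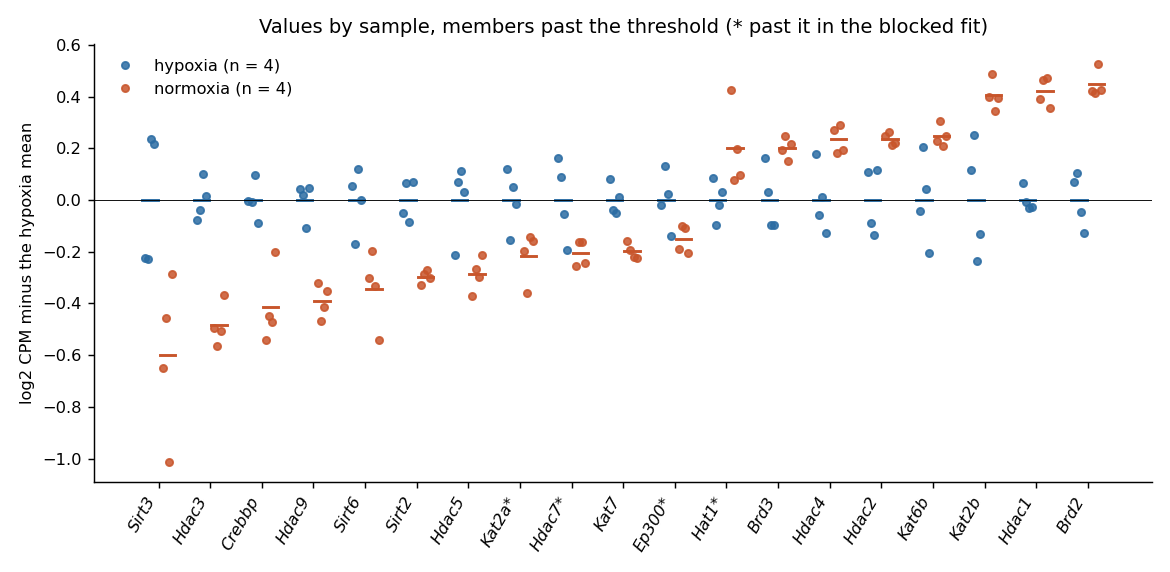
Log2 CPM of each sample minus the mean of the 4 hypoxia samples (blue, hypoxia, and orange, normoxia, with bars at the group means), for the 15 members past the threshold and, with an asterisk, the 4 that the limma-trend fit of all samples called with the replicate block and not without it. Sirt3 is the lowest and most widely spread in normoxia, and Brd2, Hdac1 and Kat2b are the highest.

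Levels per kilobase of exon sequence spanned a 98.8-fold range over the members. Hdac1 had a mean of 30.0 CPM per kilobase over both groups and Hdac9 had 0.303. After Hdac1 came Brd2 (21.0), Hdac2 (18.3) and Hdac3 (18.1), then Sirt2 (12.1) and Hdac7 (12.1), which differed by less than their spread. Kat2a (11.2) was the most abundant acetyltransferase on this scale, ahead of Kat7 (10.4). The order depends on the length used. Merged exons of Kat7 and Sirt2 span 5536 and 5035 bases, and their longest transcripts 3560 and 2117. The lowest levels after Hdac9 were those of the mitochondrial Sirt3 (0.701) and Sirt5 (0.993) and of Hdac11 (1.36). The 15 members past the threshold were found from the top to the bottom of this order.

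Across all tested genes the oxygen effect followed the GC content of the transcript, and the members were set against that trend. Spearman's rho between GC content and log2 change was -0.39 across 14353 genes and -0.12 across the 33 members, as descriptions, since genes of the same libraries are not independent. With the changes after the GC and length correction, which was fitted over all genes, rho across the members was 0.31. The corrected changes of the members are thus not free of a trend with GC content. The median change of all genes was 0.19 in the lowest of 4 bins of GC content with equal numbers of genes and -0.18 in the highest. Hdac2, in the lowest bin, and Hdac5 and Sirt6, in the highest, moved the way their bin did, and of the 15 members called, these 3 were the ones that lost their call with the block and the GC correction together. Brd2, in the highest bin, and Hdac3, Hdac9 and Sirt3, in the second bin, where the median was 0.07, moved against theirs, as did Hdac1, Hdac4 and Brd3 in the third bin, where it was -0.05. The other 5 members called moved the way of their bin. The GC and length correction alone left 12 members past the threshold (36.4% against 29.5% of all genes), of which 6 were higher, against 15.1%, and 6 lower, against 14.4%,, and with the block it left 15 (45.5% against 43.2% of all genes), of which 8 were higher, against 21.7%, and 7 lower, against 21.5%. Called in all 4 of these fits were 11 members, namely Kat2b, Kat7, Crebbp, Hdac1, Hdac3, Hdac4, Hdac9, Sirt2, Sirt3, Brd2 and Brd3. Kat5 (0.29) and Ncoa2 (-0.19) passed the threshold only where both the block and the correction were applied, and Sirt7 passed with both and with the correction alone (adjusted p = 0.034). Hat1 (0.08), Kat2a (-0.06), Ep300 (-0.11) and Hdac7, called with the block, were not past the threshold with the block and the correction.

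**Figure D4:**
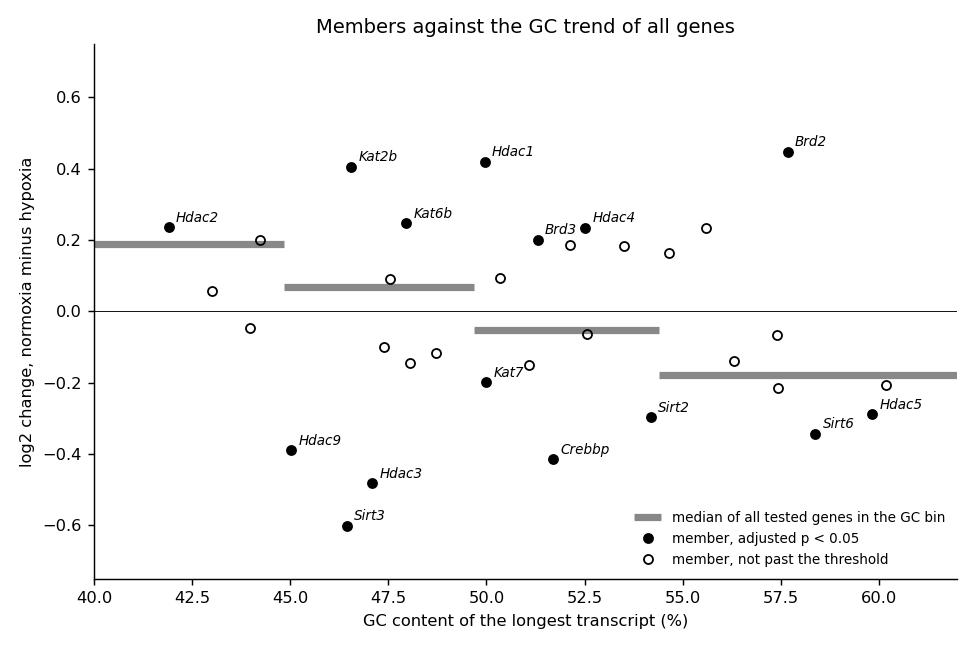
Log2 change, normoxia minus hypoxia, of each member (points, filled for an adjusted p-value under 0.05) against the GC content of its longest transcript (%), with the median change of all tested genes in each of 4 bins of GC content as grey bars, whose outer ends run beyond the plotted range. Brd2 lies far above and Hdac3, Hdac9 and Sirt3 far below the bar of their bin, whereas Hdac2 lies near it.

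The partners with which these enzymes work were read in 10 further lists, 9 of which are described, with 127 tested genes in all, of which 36 rose and 17 fell in normoxia, beside 18% and 16.5% of all tested genes. Changes in these lists are given without the GC and length correction unless stated. Among 17 subunits of the SAGA and ATAC complexes, which hold Kat2a or Kat2b, 3 rose and 1 fell, led by the ATAC subunit Zzz3 (0.44 ± 0.08), Supt20 (0.36 ± 0.09) and Yeats2 (0.28 ± 0.09). Of 14 subunits of the Kat5 complex NuA4, 3 rose and 1 fell, with Epc2 at 0.40 ± 0.08, the scaffold Trrap at -0.30 ± 0.08 and the bromodomain subunit Brd8 at 0.28 ± 0.08. Of 18 subunits of the other MYST complexes, 7 rose and 2 fell, and the most changed were Jade1 (0.62 ± 0.12), a scaffold for Kat7, Kansl2 (0.57 ± 0.10), a subunit of a Kat8 complex, and Jade3 (0.44 ± 0.15). After the GC and length correction with the block, Jade1 was at 0.50 and Kansl2 at 0.59. Jade3 was at 0.24 there and no longer past the threshold (adjusted p = 0.176).

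The corepressor complexes of Hdac1 and Hdac2 had members that changed in both directions. Of 15 SIN3 subunits, which hold Hdac1 and Hdac2, 4 rose and 1 fell, and the largest changes were those of Arid4b (0.84 ± 0.10), Arid4a (0.55 ± 0.09) and the scaffold Sin3a (0.37 ± 0.08). Of 9 NuRD subunits, which hold the same deacetylases, 1 rose and 2 fell, with Gatad2b at -0.31 ± 0.06, Mta1 at -0.30 ± 0.05 and the methyl-DNA reader Mbd2 at 0.21 ± 0.06. Of 8 CoREST subunits, 2 rose and 2 fell, with Rcor2 at -0.83 ± 0.13, Rcor3 at -0.41 ± 0.09 and Zmym2 at 0.35 ± 0.06. After the GC and length correction with the block, Rcor2 was at -0.62 and Rcor3 at -0.60. Zmym2 was at 0.13 there and no longer past the threshold (adjusted p = 0.073).

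Of 19 tested acetyl-lysine readers outside the BET family, 10 rose and none fell, beside 18% of all tested genes that rose, and with the block 13 were higher, beside 23.3%, and 1 lower (Mllt1). Their median change was 0.26, and the largest were those of Trim24 (0.54 ± 0.09), the chromatin remodelling subunit Pbrm1 (0.54 ± 0.08) and Atad2 (0.52 ± 0.13). The median GC content of their transcripts was 46.4%, against 49.7% over all tested genes, and after the GC and length correction with the block 11 were higher, beside 21.7% of all tested genes, and none lower, with a median of 0.19. Of 10 partners of the class IIa deacetylases, 3 rose and 1 fell, with the transcription factor Mef2c at -0.61 ± 0.16 and the 14-3-3 proteins Ywhab and Ywhae, which hold these deacetylases in the cytoplasm, at 0.28 ± 0.05 and 0.27 ± 0.07. Of 12 genes of NAD supply and use, on which sirtuins depend, 3 rose and 4 fell, with Nmnat2, which makes NAD in the cytoplasm, at 0.94 ± 0.16, the NAD-degrading Cd38 at -0.68 ± 0.24 and Naprt, which starts NAD synthesis from nicotinic acid, at -0.57 ± 0.10. The value of Cd38 rested on 9 to 33 counts per sample, with groups that overlapped and an adjusted p of 0.047 in limma-trend. With total counts as the only scaling, 59 of the 127 partner genes were higher and 11 lower, beside 25.1% and 11% of all tested genes, and no partner past the threshold changed its direction under either other scaling.

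**Figure D5:**
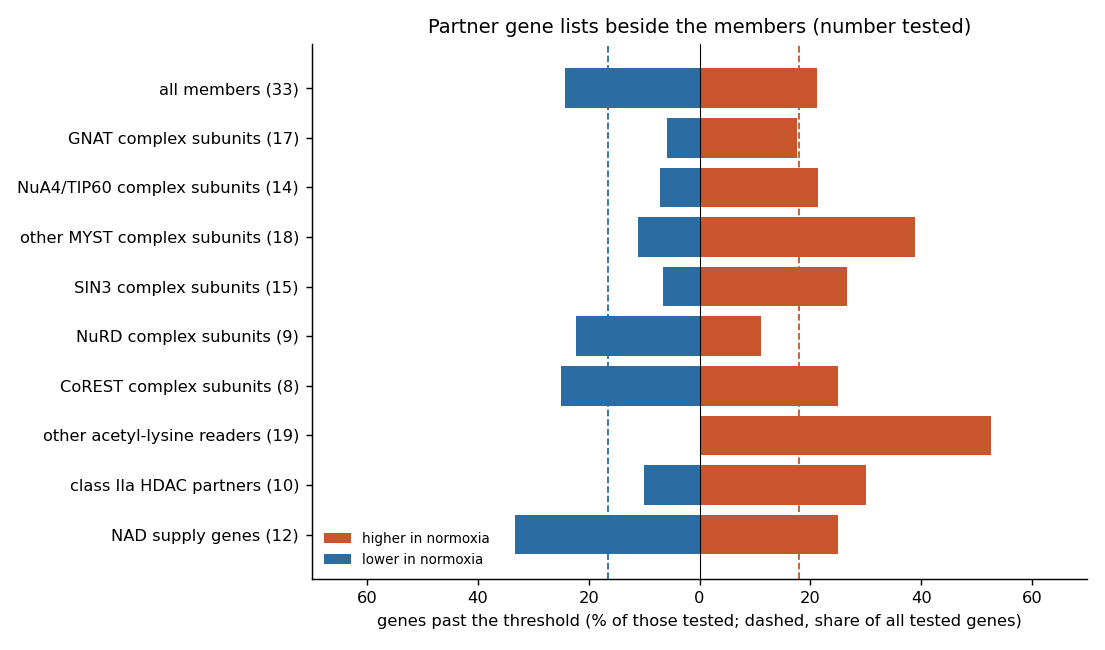
Share of the tested genes of 9 partner lists and of all members (number tested in parentheses) that was past the threshold and higher (orange, right) or lower (blue, left) in normoxia, in % of the tested genes, with the shares over all tested genes as dashed lines at 18% and 16.5%. The acetyl-lysine readers have 10 of 19 genes higher and none lower, and the other MYST complex subunits 7 of 18 higher and 2 lower.

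Sequence similarity limits a pair of values. Hdac1 has a near-identical copy in the genome, Gm10093, with 99.4% identity over 1444 bases and 10 to 30 counts per sample, and with these counts added the Hdac1 change stayed at 0.42 (adjusted p = 0.00021). A copy of Kat2b had 0 or 1 count in a sample. On the opposite strand, exons of Rnaseh2c, with 123 to 364 counts, cover 12.1% of the exon bases of Kat5, which has 120 to 266. Exons of H2-DMa, with 28 to 80 counts, cover 4.6% of those of Brd2, which has at least 1647. The part of these neighbours in the values of Kat5 and Brd2 was not tested.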

How the data were processed

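Total RNA of 8 samples was sequenced as single-end reads. Per the methods of the study, the authors used zUMIs with STAR, featureCounts and samtools on the mm10 (GRCm38) genome and deposited raw read counts per Ensembl gene; use of strand, introns and multiply mapped reads is not given in the sources used here. Symbols, GC content and transcript lengths came from GENCODE M21, and 105 identifiers with 0.00364% of the counts had no symbol.

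Following the study, genes were kept by filterByExpr (minimum count 5, 14369 genes with 99.9% of the counts), scaled by TMM in edgeR 4.0.16 (a scaling the study does not state), expressed as log2 CPM with a prior count of 3 and fitted by limma-trend (limma 3.58.1, R 4.3.3). Calls rest on Benjamini-Hochberg adjusted p-values under 0.05. Differences are given as normoxia minus hypoxia of log2 CPM, which understates those of low genes. The GC and length correction removed natural splines with 5 degrees of freedom each per sample. Alternatives were edgeR's quasi-likelihood test, limma-voom, DESeq2 1.42.0, other scalings, filters and prior counts, and leaving out samples. Paralog ratios used counts with 0.5 added and two-sided exact permutation tests (scipy 1.17.1). Near-identical copies were found with blastn 2.17.0 (at least 95% identity over 1000 bases).

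Same-numbered samples paired: their deviations from group means correlated at 0.47, 0.28, 0.25 and 0.17 over genes, each sample best with its own number, and the study describes dividing 1 sorted population. All 33 members are named, with full values for those called in either the blocked or the unblocked fit, and from each partner list the 3 largest changes past the threshold. The result of 1 partner list is not reported here. The rule for members uses names alone, but members and lists were chosen with earlier results of these data known. On simulated data with 197 of 14206 genes given a log2 change of 1, 82.7% were recovered by limma-trend, and 4.68% of its calls were false (83.2% and 6.82% with the block, 84.8% and 8.74% with DESeq2). No member changed by that much. The simulated samples had no pairing, no GC trend and few changed genes, unlike the real ones, so these rates need not hold for the real fits. The study describes the 4 samples per group as independent biological replicates, while the labels do not say whether they came from separate cultures or animals. At these depths 3 counts correspond to 0.119 to 0.233 CPM, for counting error only.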

Additional observations from a re-analysis of the deposited data

Results flagged for a closer look

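Samples that stood apart from the other 3 of their group, by a gap to the nearest value that was too large a share of the whole range in Dixon's test at the 95% level, were found in 5 of 90 sets searched, where chance gives about 4.5. Sirt7 in normoxia replicate 1 had 3.26 log2 CPM, against 3.50 to 3.51 in the other normoxia samples. Brd2 in normoxia replicate 3 had 7.64 log2 CPM, against 7.53 to 7.54. The log2 ratio of Ep300 to Crebbp was 0.47 in normoxia replicate 4, against 0.82 to 0.83, and it is this sample that overlapped with hypoxia. The log2 ratio of Hdac4 to Hdac5 was -0.85 in hypoxia replicate 1, against -1.40 to -1.34, and the sample stayed below every normoxia sample. The same library, hypoxia replicate 1, had 25132141 total counts, against 12929564 to 13219647 in the other hypoxia samples.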

How the results depend on the processing

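Of 22 alternatives per member, none ended the call of Kat2b, Crebbp, Hdac1, Hdac3, Sirt2 or Brd2, and no member past the threshold reversed. Over all members and alternatives, 76 results lost and 21 gained a call and 629 kept their side. The 7 members higher in normoxia became 4 with DESeq2, 4 without the filter and 3 at an adjusted p under 0.01, and the 8 lower became 3 with total counts only and 3 at 0.01, where 2925 in place of 4970 tested genes were called. Calls ended with DESeq2 were those of Kat6b, Hdac4, Hdac9 and Brd3, without the filter those of the same 4 and Sirt3, with total counts only those of Kat7, Hdac5, Hdac9, Sirt3 and Sirt6, with DESeq2 size factors in limma-trend those of Kat6b and Brd3, and with limma-voom that of Brd3. Leaving out 1 sample gave 3 to 6 members higher, 5 to 8 lower and 3838 to 5423 tested genes; 3 higher came without hypoxia replicate 3, normoxia replicate 1 or normoxia replicate 2, 4 higher without hypoxia replicate 4, normoxia replicate 3 or normoxia replicate 4, and 5 lower without normoxia replicate 3. Without both samples numbered 1, which include the deepest library, 6 members were higher and 6 lower, the calls of Kat6b, Hdac9 and Sirt6 having ended, and 7 and 7 with the block, an alternative chosen after seeing the data. The replicate block on all pairs gave 8 higher, 11 lower and 6610 tested genes. For the 11 ratios, none passed the adjusted threshold in any alternative, and the paired sign-flip test cannot go below 0.125, nor the permutation test below 0.0571 without 1 sample. The partner genes, 36 higher and 17 lower, became 59 and 11 with total counts only, also chosen after seeing the data. The cause of these shifts was not tested. Depth limits the members with few counts, Sirt3 and Hdac9 foremost.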
